A study of Homo sapiens with 6 samples.

Results

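The genes described here encode the proteins of the human mitochondrial ribosome. They were taken by name: every protein-coding gene of the deposited table whose symbol starts with MRPL or MRPS followed by a digit, which gave 78 of 58825 genes. The rule itself used no measured value, but it was set with earlier results of these data known. By the structures of the ribosome, 51 of the 78 proteins belong to the large subunit and 26 to the small subunit. MRPS36 carries the family's name but is now known as a component of the 2-oxoglutarate dehydrogenase complex, and it was kept because the rule takes it. MRPS18A and MRPS30 were counted with the large subunit, where their proteins sit in spite of their names.

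The study asked how transcript levels change when SIGLEC15, a Siglec that binds sialic acids, is targeted in 143B cells, an established human osteosarcoma line. Cells at high confluence were given either a non-targeting (negative control) or a SIGLEC15 siRNA at 80 nmol/L with a lipid transfection reagent, in medium with serum and antibiotics, and RNA was taken 36 h later. Each of the 2 groups has 3 poly(A) RNA-seq libraries, control siRNA 1 to 3 and SIGLEC15 siRNA 1 to 3. Whether separate cultures stand behind the libraries is not stated in the labels. The p-values therefore reflect only how far these libraries scatter, which may be technical, and all libraries come from 1 cell line.

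Mitochondrial ribosomes translate the few mRNAs of the mitochondrial genome, which code for core subunits of the respiratory chain and the ATP synthase. Their RNAs are made inside the organelle, but all their proteins are encoded in the nucleus, made in the cytosol and imported. Some of the proteins have counterparts in bacterial ribosomes, and others exist only in mitochondria.

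The libraries hold 57966691 to 67655254 counts each. On the second principal component of log2 CPM, which carries 20.2% of the variance, control siRNA 3 (56.3) and SIGLEC15 siRNA 1 (35.3) stood apart from the other libraries (-27.2 to -20.4). CPM here are counts scaled to a common library total after trimmed-mean scaling of the library sizes, and FPKM, which also divide by transcript length, are the authors' deposited values. SIGLEC15 itself had 6 to 22 counts per library, and its log2 fold change was -0.82 with a 95% interval from -2.24 to 0.60 (edgeR's quasi-likelihood test, Benjamini-Hochberg adjusted p = 0.529), so a lower level of the target was not detectable at this depth. Of 9 mesenchymal and bone markers, VIM (482 FPKM in the control group) and SPARC (62.6 FPKM) were abundant, COL1A2 had 24 counts in all and THY1 had 0. The 7 of the 9 that passed the filter on low counts ran from 0.327 to 482 FPKM, with a median of 15.3. The markers of other cell types CDH1, PTPRC, CD3E and CDH5 were at 0, while EPCAM (4.10 FPKM) and CD68 (19.5 FPKM) were detected. Of the 12 such markers listed, 3 passed the same filter, at 0.0283 to 19.5 FPKM.

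All 78 genes passed the filter on low counts, and each was well covered, from 2549 counts over the 6 libraries for MRPL53 to 65389 for MRPS21. Levels between genes can be compared only per length, in FPKM. In the control group the mean FPKM ran from 3.92 for MRPL55 to 133 for MRPL12, with a median of 22.3. MRPL12, the stalk protein that recruits translation factors to the ribosome, was at 133 ± 9.02 FPKM (SD, n = 3) with control siRNA and at 142 ± 6.43 FPKM with SIGLEC15 siRNA. The next 4 control levels were those of MRPS21 (95.3 ± 9.25 FPKM), MRPL51 (84.2 ± 7.50), MRPL15 (78.5 ± 1.79) and MRPL47 (69.4 ± 3.24). The lowest 5 were MRPL55 (3.92 ± 0.313 FPKM), MRPS33 (4.31 ± 0.664), MRPL27 (4.36 ± 0.420), MRPL42 (4.78 ± 0.109) and MRPS11 (5.73 ± 0.449). Neighbours in this order differed by more than their SDs added together between MRPL12 and MRPS21, between MRPL15 and MRPL47 and between MRPL42 and MRPS11, and the other named neighbours did not. The genes of 1 particle, whose proteins are mostly present in equal number, therefore differed widely in FPKM, as the plot of both groups shows. These ranks depend on the transcript lengths behind the FPKM, which were not checked. MRPL42, among the lowest 5, had a mean of 93.4 CPM in the control group at 4.78 FPKM, beside 160 CPM at 133 FPKM for MRPL12.

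**Figure D1:**
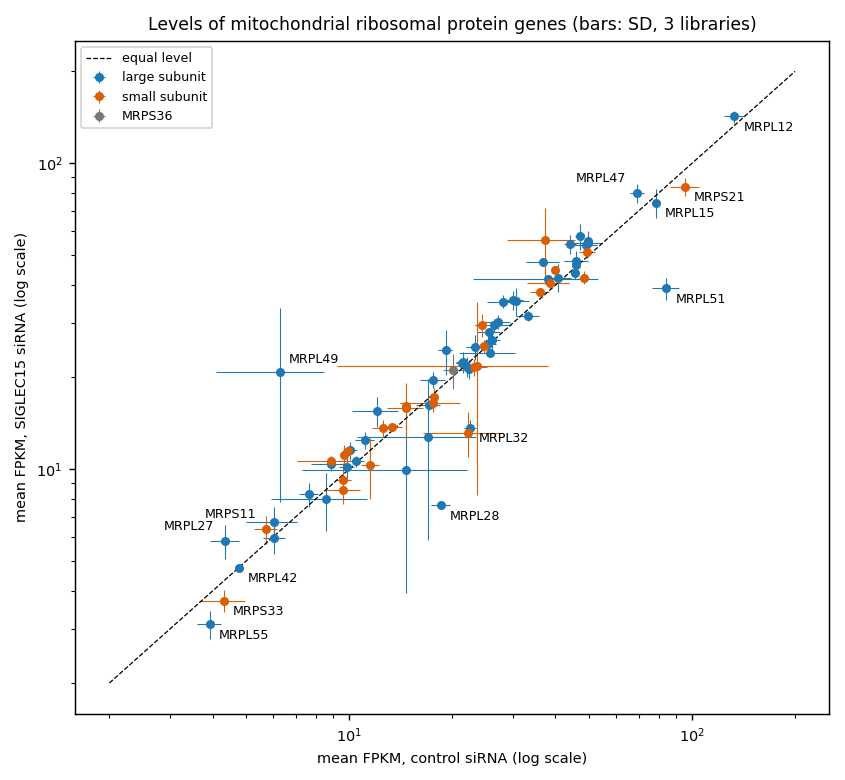
Mean FPKM of the 78 genes in the control siRNA libraries (x axis, log scale) against the SIGLEC15 siRNA libraries (y axis, log scale); bars are the SD over 3 libraries, colours mark the subunit and the dashed line marks equal levels. Most genes lie on the line, from MRPL55 at the bottom to MRPL12 at the top, while MRPL28, MRPL51 and MRPL32 lie below it and MRPL49 lies above it with a long bar.

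The mRNAs of 3 large-subunit proteins, MRPL28, MRPL51 and MRPL32, fell after SIGLEC15 siRNA, by 2.43-, 2.16- and 1.65-fold. By the same test, edgeR's, no gene of the small subunit was called and no gene of the family was called higher. Of the 78 genes, 0 were called higher and 3 lower at an adjusted p under 0.05 (edgeR's quasi-likelihood test, Benjamini-Hochberg adjustment over 18910 tested genes), which leaves 75 uncalled. Over all tested genes 2.22% were called higher and 2.43% lower, 4.65% in all, so a count of 3 in 78 is near that share. Among the 10716 tested genes whose mean control CPM reached that of the lowest gene of the family, 352 were called higher and 409 lower. At an unadjusted p under 0.05, 15 genes of the family were higher and 6 lower, beside 9.35% and 9.74% of all tested genes. DESeq2's Wald test, which called 8.62% of the genes it adjusted higher and 8.49% lower, called 12 genes of the family higher and 5 lower, with small-subunit genes in both directions (MRPS7, MRPS23, MRPS34 and MRPS35 higher, MRPS18B and MRPS27 lower). In bulk RNA of this kind, less RNA per cell and fewer cells of a kind cannot be told apart.

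MRPL28 encodes bL28m, a large-subunit protein with a bacterial counterpart. Its CPM were 65.8, 63.0 and 72.3 in control siRNA 1 to 3 and 28.4, 26.3 and 28.1 in SIGLEC15 siRNA 1 to 3. Every control library was above every SIGLEC15 siRNA library, and within each group the values lay close together. The log2 fold change was -1.28 (SE 0.0841, edgeR's quasi-likelihood test, adjusted p = 0.00137). MRPL28 (chromosome 16, 366969 to 371289, minus strand, coordinates as in the deposited table) shares 502 bases on the same strand with TMEM8A, whose own CPM were not lower (log2 fold change 0.12, edgeR adjusted p = 0.601). Neither gene's reads in the shared bases can be assigned with certainty, since their counting is not described in the labels. For the summed CPM of both genes the log2 ratio between the groups was -0.64.

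MRPL51 encodes mL51, a large-subunit protein found only in mitochondria, and was among the most abundant genes of the family. Its CPM were 128, 135 and 155 in the control libraries and 71.1, 58.8 and 63.6 in the SIGLEC15 siRNA libraries. The groups were again fully apart, with the lowest control value well above the highest value of the other group. The log2 fold change was -1.11 (SE 0.104, edgeR's quasi-likelihood test, adjusted p = 0.00439). The gene (chromosome 12, 6491886 to 6493841, minus strand) overlaps NCAPD2 on the opposite strand by 486 bases, and NCAPD2 had a log2 fold change of -0.03 (edgeR adjusted p = 0.897).

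MRPL32 encodes bL32m, whose precursor is cut by the m-AAA protease in the mitochondrial matrix before it joins the ribosome. Its CPM were 92.5, 85.8 and 91.9 in the control libraries and 54.8, 50.5 and 58.3 in the SIGLEC15 siRNA libraries. No value of one group reached the range of the other. The log2 fold change was -0.72 (SE 0.0783, edgeR's quasi-likelihood test, adjusted p = 0.00662). MRPL32 lies on chromosome 7 from 42932376 to 42948958 on the plus strand.

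**Figure D2:**
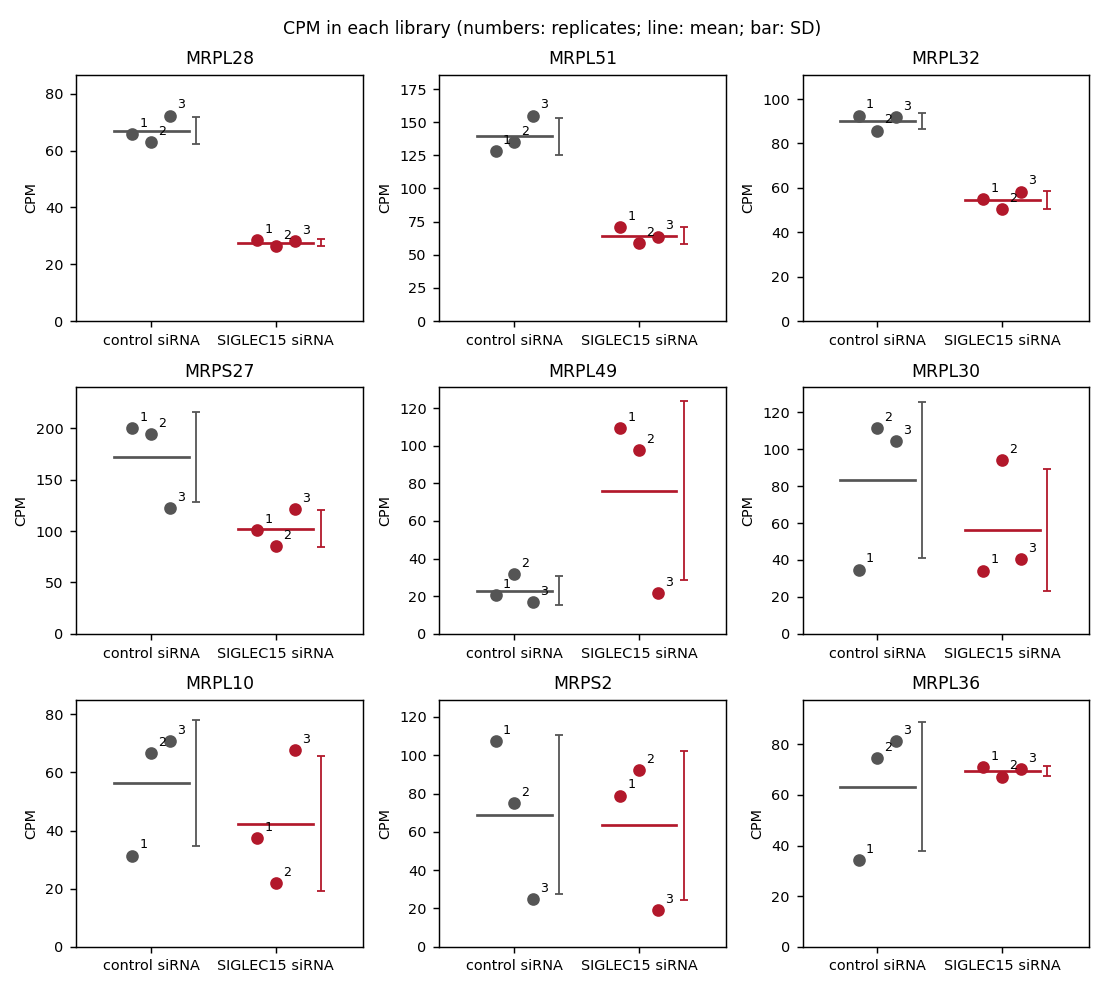
CPM of 9 genes in each library (y axis from 0; points numbered by replicate, horizontal line the mean, vertical bar the SD of 3 libraries). The groups of MRPL28, MRPL51 and MRPL32 are apart with tight values, whereas MRPL49, MRPL30, MRPL10, MRPS2 and MRPL36 have single libraries far from the rest of their group.

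MRPS27, a small-subunit protein of the pentatricopeptide repeat family, had a difference as large as that of MRPL32 but a wider spread. Its CPM were 200, 194 and 122 in the control libraries and 101, 85.0 and 121 in the SIGLEC15 siRNA libraries. The groups did not overlap, but control siRNA 3 and SIGLEC15 siRNA 3 almost met. The log2 fold change of -0.75 (SE 0.213) did not pass (edgeR's quasi-likelihood test, adjusted p = 0.113). It passed in 2 of 12 alternatives: without control siRNA 3, at -0.95 (edgeR adjusted p = 0.0486), and by DESeq2's Wald test (adjusted p = 0.000813). With any other single library left out, edgeR's adjusted p was 0.136 to 0.288.

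The remaining genes with the lowest log2 fold changes were MRPL30 (-0.57), MRPL10 (-0.41), MRPL55 (-0.33) and MRPS33 (-0.21), and edgeR's adjusted p lay between 0.222 and 0.702 for them. MRPL55 is a large-subunit protein counted here with those that have a bacterial counterpart. It was the only one of these 4 with groups apart, at 9.57, 8.89 and 8.40 CPM in the control libraries against 7.32, 7.66 and 6.41.

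The highest log2 fold change of the family, 1.73 for MRPL49, rested on a group that was not uniform. MRPL49 encodes mL49 of the large subunit. Its CPM were 20.5, 31.9 and 16.7 in the control libraries and 109, 97.6 and 21.7 in the SIGLEC15 siRNA libraries. SIGLEC15 siRNA 1 and 2 were far above every control library, while SIGLEC15 siRNA 3 lay within the control range. The test over all 6 libraries did not pass (SE 0.577, 95% interval 0.35 to 3.10, edgeR's quasi-likelihood test, adjusted p = 0.165). Without SIGLEC15 siRNA 3 the log2 fold change was 2.17 and passed (edgeR adjusted p = 0.0266), the only 1 of 12 alternatives in which it did. The whole of MRPL49 (chromosome 11, 65122183 to 65127371, plus strand) lies within the span of SYVN1 on the opposite strand, whose CPM were 21.3, 30.4 and 17.5 in the control libraries and 14.6, 17.7 and 10.4 in the others. The 2 genes ranked the control libraries alike. SYVN1 differed by a log2 fold change of -0.70 (edgeR adjusted p = 0.215), and for the summed CPM of both the log2 ratio was 0.97.

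Among the others, 4 genes had a highest value at least 2 times the lowest within a group: MRPL30, MRPL10, MRPS2 and MRPL36, the last pair named after their values were seen. MRPS2, a small-subunit protein with a bacterial counterpart, had 107, 74.9 and 24.9 CPM in the control libraries and 79.0, 92.3 and 19.3 CPM in the SIGLEC15 siRNA libraries. Replicate 3 was the low one in both groups. MRPL30, also a bacterial type protein, had 34.8, 111 and 104 CPM against 34.2, 93.9 and 40.3. MRPL10, which anchors the stalk, had 31.4, 66.7 and 70.7 CPM against 37.4, 22.0 and 67.6. MRPL36 had 34.1, 74.7 and 81.2 CPM against a narrow 70.9, 67.3 and 70.2. The outlying library therefore differed from gene to gene. With MRPL49 these were 5 of 78 genes (6.41%), beside 28.6% of all tested genes and 8.59% of the 10716 tested genes whose mean control CPM was at or above that of the lowest gene of the family. None of the 5 was called, and the origin of the outlying values was not tested.

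The rest of the family moved little. The median log2 fold change of the 78 genes was 0.06, with the middle 50% between -0.07 and 0.16, and 54 genes were within 0.20 of 0 in either direction. The median over all tested genes was -0.01, and over the 10716 genes of at least this level it was 0.00. Of the 78 genes, 51 had a positive and 27 a negative log2 fold change. The large subunit had a median of 0.10 (35 of 51 positive), and the small subunit a median of 0.04 (15 of 26 positive). The 48 proteins with a bacterial counterpart had a median of 0.09, and the 29 found only in mitochondria a median of 0.06. A typical gene had an SE of 0.095 on the log2 scale and an unadjusted 95% interval of 0.226 to either side.

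**Figure D3:**
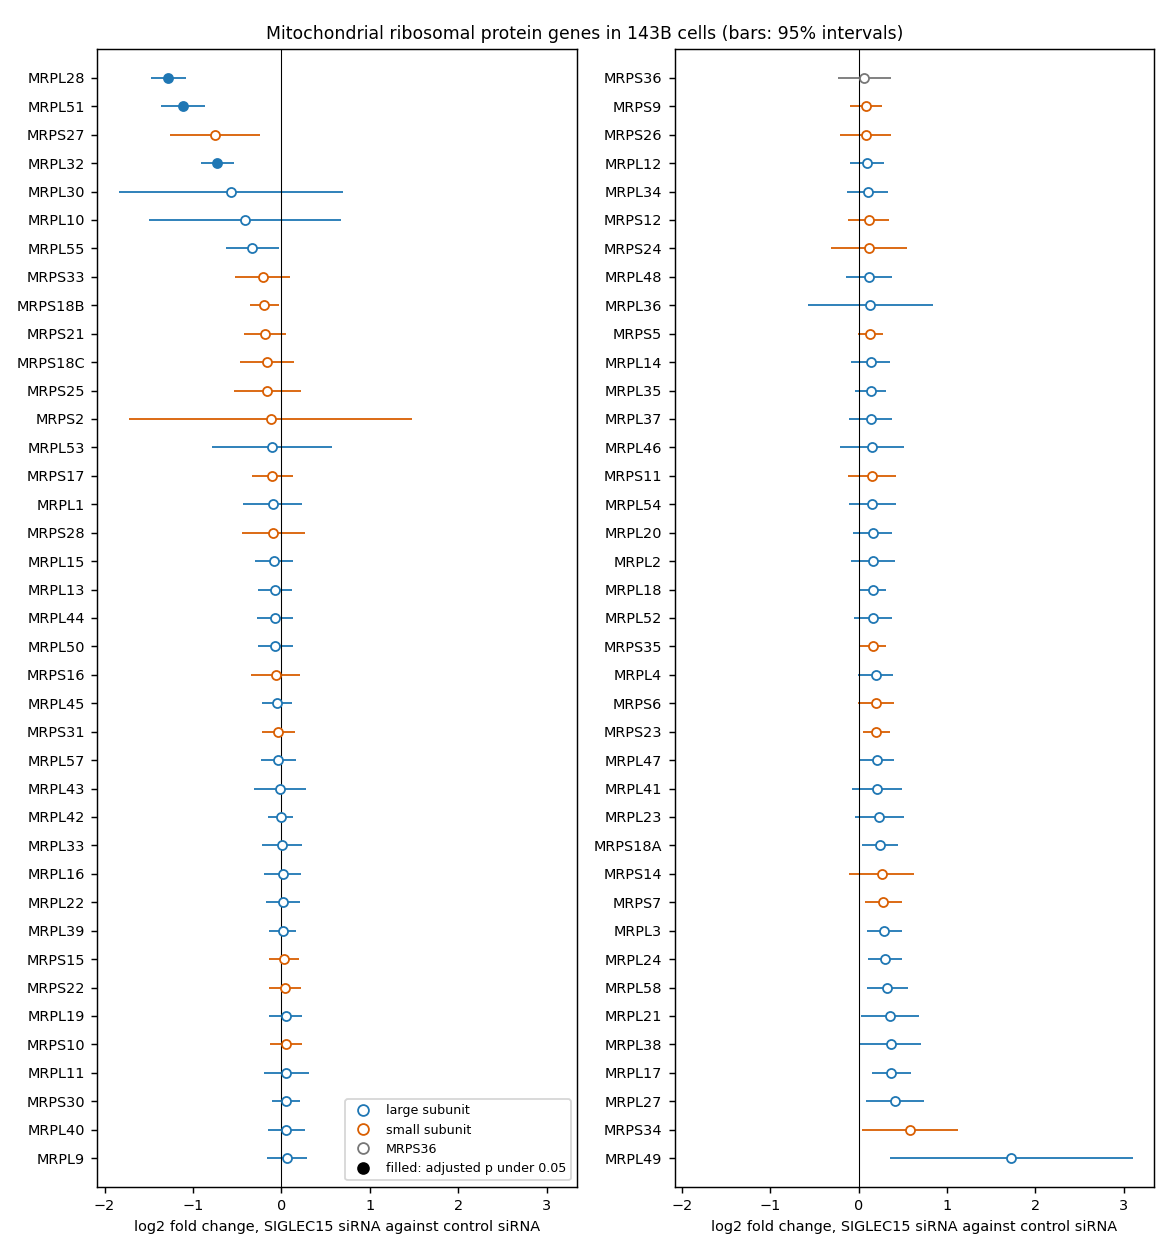
Log2 fold change of SIGLEC15 siRNA against control siRNA for each of the 78 genes (x axis), ordered from lowest to highest over the left and then the right panel; bars are 95% intervals, colours mark the subunit and filled points passed the test. Only MRPL28, MRPL51 and MRPL32 are filled, most intervals cross 0, and MRPL49, MRPL30, MRPL10 and MRPS2 have the widest ones.

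Groups that did not overlap were counted as well. SIGLEC15 siRNA was fully above control in 18 of the 78 genes (23.1%) and fully below in 6 (7.69%), beside 12.9% and 13.7% of all tested genes and 16.2% and 16.7% of the 10716 genes of at least this level. The high values were uneven between libraries. SIGLEC15 siRNA 1 held the highest CPM of the 6 libraries in 41 of the 78 genes, and control siRNA 1 held the lowest in 29. The median of the genes' log2 values, set relative to the control mean, was -0.05, 0.00 and 0.08 in control siRNA 1 to 3 and 0.17, 0.04 and 0.05 in SIGLEC15 siRNA 1 to 3, with a pooled SD within groups of 0.0689. SIGLEC15 siRNA 2 and 3 thus lay inside the control range, and only library 1 lay above it. Without SIGLEC15 siRNA 1 the median log2 fold change was 0.03, and 41 of 78 genes were positive. This library was also one of those that stood apart on the second principal component, and the part of that in the result was not tested.

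Summed over the family, the mRNAs took 0.546%, 0.569% and 0.579% of all counts in control siRNA 1 to 3 and 0.605%, 0.573% and 0.550% in SIGLEC15 siRNA 1 to 3. The means were 0.565% ± 0.0168 and 0.576% ± 0.0271 (SD, n = 3). The groups overlapped, and their difference was smaller than either SD. The difference was 0.0113 percentage points with all libraries and -0.0030 without SIGLEC15 siRNA 1.

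Among genes above 0 the highest log2 fold changes after MRPL49 were those of MRPS34 (0.59), MRPL27 (0.41), MRPL17 (0.37), MRPL38 (0.36), MRPL21 (0.36), MRPL58 (0.33) and MRPL24 (0.30). None was called by edgeR, and all 7 were called by DESeq2. MRPL17, a bacterial type protein, had the smallest edgeR adjusted p of the 7, 0.0763, at 91.7, 112 and 95.9 CPM in the control libraries and 136, 125 and 127 CPM in the SIGLEC15 siRNA libraries. The groups were apart. MRPS34, a small-subunit protein found only in mitochondria, had 47.8, 37.7 and 60.4 CPM against 62.4, 94.8 and 61.7. Its groups were apart by a narrow margin, and SIGLEC15 siRNA 2 carried most of the difference. MRPL27, whose bacterial counterpart reaches to the peptidyl transferase centre, had 14.9, 14.7 and 17.7 CPM against 24.3, 19.7 and 19.0. The remaining calls of DESeq2 were higher for MRPL3, MRPS7, MRPS18A, MRPS23 and MRPS35 and lower for MRPS18B beside the 4 lower genes described above; MRPL3, MRPS7, MRPS23 and MRPS35 were named after these calls were seen.

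No functional site had its genes called together by edgeR. At the stalk that binds translation factors, MRPL10 had a log2 fold change of -0.41, MRPL11 of 0.06 and MRPL12 of 0.10. At the exit of the peptide tunnel, where the inner membrane receives new chains, MRPL22 (0.02), MRPL23 (0.24), MRPL24 (0.30), MRPL44 (-0.07) and MRPL45 (-0.05) were all uncalled by edgeR, and DESeq2 called MRPL24 higher (adjusted p = 0.00201). MRPS12, at the decoding site, had 32.2 ± 2.57 CPM (SD, n = 3) with control siRNA and 34.8 ± 1.95 CPM with SIGLEC15 siRNA (log2 fold change 0.11, 95% interval -0.11 to 0.34). MRPL58, a peptidyl-tRNA hydrolase that is built into the large subunit and can release stalled chains, had 37.2 ± 3.41 and 46.6 ± 2.63 CPM. Its groups were apart, and its edgeR adjusted p was 0.125.

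The 3 paralogs of bacterial S18 pointed to different sides. MRPS18A had 47.8, 42.1 and 47.8 CPM in the control libraries and 53.6, 57.8 and 52.1 CPM in the others. MRPS18B had 104, 101 and 98.8 CPM against 93.3, 82.3 and 90.2. MRPS18A was fully higher and MRPS18B fully lower, with log2 fold changes of 0.25 and -0.19 and edgeR adjusted p of 0.176 and 0.193. MRPS18C had overlapping groups and a log2 fold change of -0.16 (edgeR adjusted p = 0.575). MRPS36, the dehydrogenase component, had 37.4 ± 2.69 and 39.2 ± 5.80 CPM.

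The other genes of mitochondrial translation were listed by function. Of 25 assembly factors, 20 tRNA synthetases and amidotransferase subunits, 10 genes of mitochondrial transcription and DNA maintenance and 5 ribosome proteins with other names, 0 were called in either direction by edgeR, while 4, 2, 2 and 0 had an unadjusted p under 0.05, beside 19.1% of all tested genes in either direction. Of 17 translation factors 1 was called, lower, beside 2.43% of all tested genes. At an unadjusted edgeR p under 0.05, 2 of the 17 were higher and 4 lower, beside 9.35% and 9.74% of all tested genes. The called gene was TACO1, the translational activator of the COX1 mRNA. Its CPM were 42.7, 41.3 and 47.6 in the control libraries and 27.5, 28.3 and 31.7 in the SIGLEC15 siRNA libraries. The groups were fully apart, with a log2 fold change of -0.59 (SE 0.0974, edgeR's quasi-likelihood test, adjusted p = 0.0236). The call was lost in 6 of 12 alternatives, among them without any one of control siRNA 1 to 3 or of SIGLEC15 siRNA 1 and 2 (log2 fold change -0.63 to -0.53, edgeR adjusted p 0.0686 to 0.1005). MT-CO1, the mRNA that TACO1 acts on and named here for that reason, had a log2 fold change of 0.17 (edgeR adjusted p = 0.145).

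Of 9 regulators of mitochondrial biogenesis 1 was called, higher, beside 2.22% of all tested genes. At an unadjusted edgeR p under 0.05, 2 of the 9 were higher and 3 lower, beside 9.35% and 9.74% of all tested genes. The called gene was PPARGC1A, the coactivator PGC-1 alpha. It was weakly expressed, at 1.47, 1.40 and 1.57 CPM in the control libraries and 2.45, 2.82 and 3.01 CPM in the SIGLEC15 siRNA libraries. The groups were apart, with a log2 fold change of 0.90 (SE 0.174, edgeR's quasi-likelihood test, adjusted p = 0.0388). The call held in 2 of the 10 alternatives that tested the gene and was lost when any single library was left out (log2 fold change 0.83 to 0.97, edgeR adjusted p 0.0741 to 0.134).

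The products and neighbours of the ribosome were compared in the same way. None of the 13 mRNAs that the mitochondrial ribosome translates was called, and their median log2 fold change was 0.07. All genes whose symbol starts with MT-, these mRNAs among them, together took 6.01% to 6.69% of each library's counts. Of 75 nuclear genes for respiratory chain and ATP synthase subunits 0 were called, with a median of 0.08 and 59 of 75 positive. Of 78 cytosolic ribosomal protein genes, the counterparts outside the organelle, 0 were called, with a median of -0.01 and 33 of 78 positive. At an unadjusted p under 0.05, 3 and 0 mitochondrial mRNAs, 5 and 3 of the respiratory chain and ATP synthase genes and 1 and 3 of the cytosolic ribosomal protein genes were higher and lower, beside 9.35% and 9.74% of all tested genes. All 3 lists lay between -0.41 and 0.55 on the log2 scale, so none had a member as low as MRPL28, MRPL51 or MRPL32. That difference in range is a description, and no list was tested as a whole.

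**Figure D4:**
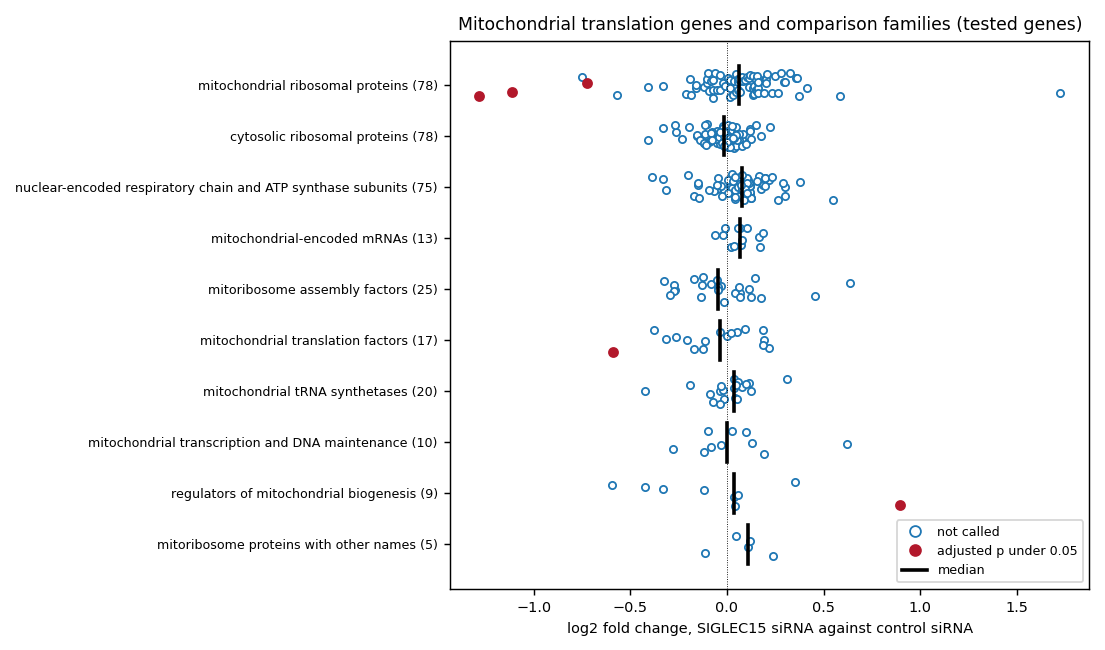
Log2 fold change (x axis) of each tested gene in the mitochondrial ribosomal protein family and in 9 comparison lists (y axis, number of tested genes in parentheses); filled points passed the test and black lines are medians. The medians lie close to 0 in every list, and the filled points outside the family are TACO1 and PPARGC1A.

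The 3' UTRs of the family, and of all other genes with a coding transcript, were read for AGGCTCA. This 7-base sequence was already known from an earlier look at these data to go with lower expression. The counts below are therefore no independent evidence for it. The strand searched is that of the mRNA. The siRNA sequences are not stated in the labels, and no relation between this sequence and either siRNA was tested. The transcript read for each gene was its principal one in GENCODE 29 (GRCh38). The sites of the 3 lowest genes that hold it are shown, with the 7 bases in capitals and up to 30 bases in all, 5′ to 3′.

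MRPL51: gaacttcggaaaAGGCTCAtctgtcaccct

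MRPS27: ggaggactcttgAGGCTCAtaatggagttc

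MRPL32: ttgtttatccaaAGGCTCAatggattatgt

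The 7 bases lie at chr12:6492239-6492245 on the minus strand in MRPL51, 26 bases after the stop codon, at chr5:72220657-72220663 on the minus strand in MRPS27 and at chr7:42937763-42937769 on the plus strand in MRPL32. The 3' UTRs of 8 of the 78 genes hold the sequence (10.3%), beside 10.6% of the 13778 tested genes with a coding transcript. The other 5 are MRPL30, MRPL42, MRPL19, MRPL35 and MRPS11, with log2 fold changes of -0.57, -0.01, 0.05, 0.14 and 0.15. MRPL19 and MRPL35 were named for the sequence after their values were seen. All 6 annotated coding transcripts of MRPL51 and the only 1 of MRPL32 hold it in the 3' UTR, but only 2 of 5 of MRPS27. For MRPL30 and MRPS11 it is 1 of 2, for MRPL35 1 of 4, for MRPL42 and MRPL19 1 of 5. MRPL43, named for this and counted as without the sequence, has it in 3 of 11. The median log2 fold change was -0.29 in the 8 genes with the sequence and 0.08 in the 70 without it. Over the tested genes the medians were -0.06 and 0.01, with 7.77% of the genes that hold it and 2.53% of those without it called lower. The gene with the lowest log2 fold change, MRPL28, had the sequence in the 3' UTR of none of its 4 annotated coding transcripts. Outside the family, the 3' UTR of the only annotated coding transcript of TACO1 holds it, and those of the 5 of PPARGC1A do not.

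**Figure D5:**
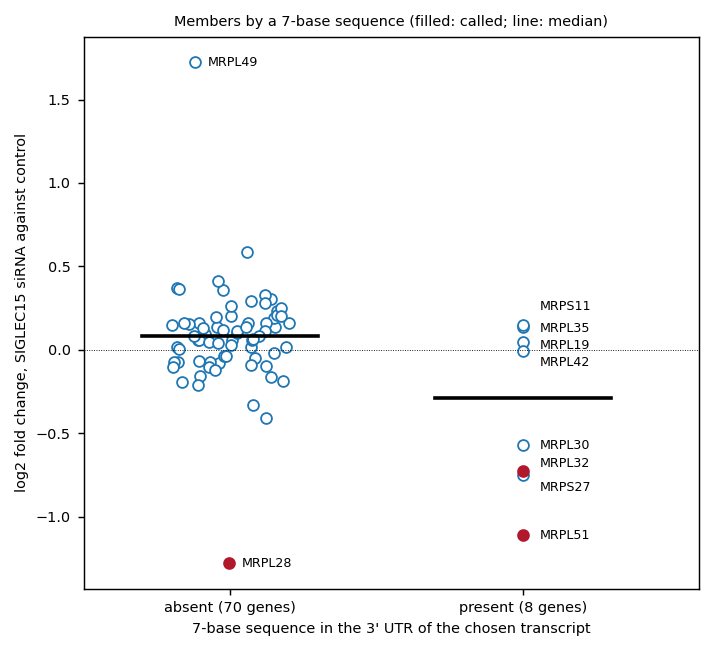
Log2 fold change (y axis) of the 78 genes without (left) and with (right) the sequence AGGCTCA in the 3' UTR of their principal transcript; filled points passed the test and black lines are medians. Of the 8 genes on the right, 4 lie at or below -0.57 and 4 lie near 0, and MRPL28, the lowest gene, is on the left.

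Promoters of the family were read as 250 bases before to 50 bases after the annotated start (RefSeq, GRCh38.p14), and 69 of the 78 genes matched by symbol. AAGATGGC, the core letters of sites for the factor YY1, was found on either strand in 21 of the 69 (30.4%), beside 3.52% of 27305 genes with a promoter and 5.96% of the 11529 tested ones. CCGGAAG, a core of sites for ETS factors such as GABPA, was in 30 (43.5%), beside 12.2% and 20.7%. The TATA box letters TATAAA were in 3 (4.35%), beside 14.0% and 8.91%, and CCAAT was in 23 (33.3%), beside 39.7% and 42.7%. Both of the first 2 strings were in 8 promoters and neither in 26. The strings searched can overlap one another, and a match describes letters, not binding.

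The promoters of the 3 called genes are shown, 5′ to 3′ on the strand of the gene. YY1 and ETS strings on either strand are in capitals. No relation between these strings and the fold changes was tested.

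MRPL28: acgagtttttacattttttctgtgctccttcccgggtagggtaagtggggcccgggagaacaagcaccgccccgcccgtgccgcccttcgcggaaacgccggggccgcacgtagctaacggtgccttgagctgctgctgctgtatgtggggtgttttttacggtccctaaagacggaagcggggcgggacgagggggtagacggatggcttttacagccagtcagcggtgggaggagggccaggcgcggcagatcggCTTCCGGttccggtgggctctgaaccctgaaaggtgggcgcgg

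MRPL51: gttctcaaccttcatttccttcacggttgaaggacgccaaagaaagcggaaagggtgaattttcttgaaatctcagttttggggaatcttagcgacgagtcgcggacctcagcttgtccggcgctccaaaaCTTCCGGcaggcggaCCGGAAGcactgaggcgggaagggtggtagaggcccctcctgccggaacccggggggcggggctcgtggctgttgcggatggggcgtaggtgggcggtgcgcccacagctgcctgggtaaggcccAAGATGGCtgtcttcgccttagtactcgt

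MRPL32: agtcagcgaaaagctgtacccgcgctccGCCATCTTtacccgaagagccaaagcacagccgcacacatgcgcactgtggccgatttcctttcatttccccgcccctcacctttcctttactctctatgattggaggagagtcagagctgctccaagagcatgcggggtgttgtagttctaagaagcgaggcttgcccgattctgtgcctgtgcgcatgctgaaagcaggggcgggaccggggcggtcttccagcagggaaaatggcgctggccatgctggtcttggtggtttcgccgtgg

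The windows are chr16:370489-370788 (minus strand), chr12:6493213-6493512 (minus strand) and chr7:42932126-42932425 (plus strand). In the deposited table MRPL28 and MRPL51 begin further upstream, at 371289 and 6493841 on the minus strand. Their windows therefore lie within the deposited genes, and the sequence before the deposited starts was not read. MRPL28 has 1 ETS string, at position 8 counted from the first transcribed base in RefSeq. MRPL51 has ETS strings at -119 and -104 and the YY1 string at 22. MRPL32 has the YY1 string, on the other strand, at -222.

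Other genes that share sequence with the family limit single values. Genes with at least 60 counts overlap 34 of the 78 genes, 11 of them on the same strand. The table also holds 75 pseudogenes of 34 of the genes, of which 16 had a count. Their counts came to 12.6% of those of MRPS31, 3.37% of MRPL45 and 2.17% of MRPL3, and to 0 for MRPL51 and MRPL32; MRPS31 and MRPL3 were named for that share. How reads were divided between such copies is not stated. In this respect the values of MRPS31, MRPL45 and MRPL3 are the less certain ones. Same-strand overlaps also matter: MRPS17 shares 4624 bases with NIPSNAP2, and MRPL53 shares 702 bases with CCDC142. For the summed CPM of each pair the log2 ratios were 0.05 and 0.06, against log2 fold changes of -0.10 and -0.10 for MRPS17 and MRPL53 alone. Both were named here for this change of sign. MRPS6, 1 of the genes fully above control, shares 32683 bases on the same strand with SLC5A3 (53.7 to 80.7 CPM). For their summed CPM the log2 ratio was 0.02, against a log2 fold change of 0.20 for MRPS6 alone. MRPS6 was named for this overlap.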

How the data were processed

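The members and gene lists were chosen with earlier results of these data known. Per the file headers, the deposited table holds whole-number counts and FPKM per gene and library; the authors' FPKM were used for levels only, beside limma-trend. HISAT, StringTie and edgeR appear in the submitters' processing notes. Not given in the sources used here: how counts were derived, the genome build and any use of strand. Counts were tested with edgeR 4.0.16 (R 4.3.3): filterByExpr (minimum count 10, minimum total 15), TMM scaling, quasi-likelihood F test over all 6 libraries with no covariate, Benjamini-Hochberg adjustment, calls at 0.05. Standard errors are the log2 fold change over the square root of F. The test was tried on simulated data. Alternatives were median-of-ratios scaling, a filter of 1 count in total, DESeq2 1.42.0, limma-trend 3.58.1 on log2(FPKM + 1) and log2(FPKM + 0.1) at a mean FPKM of at least 1, the replicate number as a block, and each library left out. Leaving out genes on 2 levels was added after seeing the data.

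Of the 78 genes, 31 have the same start and end as in GENCODE 29, and all 78 overlap their gene there. Named genes are every called gene, the 8 highest and 8 lowest log2 fold changes, the 5 highest and 5 lowest control FPKM, genes of the stalk, decoding site, tunnel exit and S18 paralogs, MRPS36, MRPL58, called genes of the lists and SIGLEC15. Others are marked. No column was left without a sample (0).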

Additional observations from a re-analysis of the deposited data

How the results depend on the processing

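MRPL28 was called in 12 of 12 alternatives, and MRPL51 and MRPL32 in 11 of 12. The replicate numbers did not pair the libraries (correlations of same-numbered deviations -0.05, 0.01 and -0.06). With the replicate number as a block, MRPL51 and MRPL32 had edgeR adjusted p of 0.061 and 0.066, 1 gene of the family was called lower, 50 genes were called in all and 0 of the genes in the mitochondrial translation lists; the cause was not tested. All calls numbered 879 as reported, 2916 with DESeq2 and 260 to 431 with single libraries left out, where fewer samples entered. Genes of the family called higher numbered 0 as reported, 12 with DESeq2 and 0 to 1 with single libraries left out, the 1 being MRPL49 without SIGLEC15 siRNA 3. Genes called lower numbered 3 as reported, 5 with DESeq2 and 3 to 4 with single libraries left out. The 2 calls in the translation lists became 19 with DESeq2, 1 without the filter, 1 with limma-trend on log2(FPKM + 1), 1 on log2(FPKM + 0.1) and 0 to 2 with single libraries left out. The cause of the differences between tools was not tested. The median log2 fold change of the family ranged from 0.03 to 0.11 with single libraries left out. Over the family, 41 to 53 genes had a positive log2 fold change when single libraries were left out, 51 as reported. Among the genes named by rule, 5 uncalled ones near 0 changed sign, with log2 fold changes from -0.157 to 0.00036 for MRPL15, -0.0303 to 0.0082 for MRPL42, -0.0374 to 0.049 for MRPL22, -0.0186 to 0.137 for MRPL11 and -0.0344 to 0.179 for MRPS36. Depth did not limit the counts of the family, whose precision is set by 3 libraries per group; it limits SIGLEC15.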
